A study of Mus musculus with 2 samples.

Results

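Timd4 and Cd4 were followed as a pair through single-cell RNA profiles of macrophages sorted from the mouse small intestine. They are 2 of the 27998 genes counted in each library, chosen by name and matched by gene symbol. A cell was used if 200 or more genes were detected in it and no more than 10% of its unique molecular identifiers (UMIs, 1 per captured RNA molecule) came from mitochondrial genes. There were 3016 such cells in the wild-type library and 2612 in the Ccr2-knockout library.

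Timd4 encodes Tim-4, a surface receptor for phosphatidylserine with which macrophages bind dying cells, and it is known as a marker of long-lived resident macrophages in several tissues. Cd4 encodes the co-receptor with which helper T cells engage MHC class II, and some gut macrophages also carry it. Ccr2 is the chemokine receptor that monocytes need to leave the bone marrow, so its deletion removes most of the monocyte supply to the gut, where many macrophages are replaced from blood monocytes. Tim-4 and CD4 together are used as a surface signature of gut macrophages that are replaced slowly.

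The wild-type library came from male C57BL/6J mice supplied by Janvier, and the knockout library from CCR2-/- mice (JAX strain #:004999) bred in-house, whose sex and ages are not given in the sources used here. Genotype and source of the mice therefore cannot be told apart. For each library 3 to 4 intestines were pooled after removal of mucus and epithelium and digestion with Liberase TL. The sort kept live CD45+ cells that were negative for CD3, TCRb, B220, SiglecF, Ly6C and Ly6G and positive for CD11b, MHCII and CD64, so the gate was set against T cells and Ly6C+ monocytes. Libraries were made with the 10x 3′ v2 kit, and the wild-type library was split over 2 lanes.

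The wild-type cells held a median of 6129 UMIs and the knockout cells a median of 2439. With 1 library per genotype, no difference between genotypes has a replicate check. Intervals given below are 95% intervals that cover counting error only, and no p-value was computed from cells. The 2 wild-type lanes carry the same cell suspension and serve as a technical yardstick. The core macrophage genes on a list of 10 were all detected in every gate described below, and the libraries shared few cell barcodes: 6 between the knockout and wild-type lane 1, 0 between the knockout and lane 2, and 5 between the lanes. The list of 12 dissociation stress genes summed to between 6057 and 7370 UMIs per 1000000 (CPM) in the Timd4 and Cd4 gates of the wild-type library and to between 21193 and 23134 CPM in those of the knockout, and its part in differences between the libraries was not tested.

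In the GENCODE M21 annotation of GRCm38, Timd4 spans bases 46810800 to 46844332 of chromosome 11 (plus strand), and its coding transcript has 9 exons. Cd4 spans bases 124864692 to 124888221 of chromosome 6 (minus strand), with 10 exons in its coding transcript. No annotated gene overlaps either locus, and the nearest to Cd4, Gpr162, is 709 bases away on the same strand. The stretch of 237 bases upstream of the earliest annotated Timd4 start (RefSeq, GRCm38.p6, chr11:46810549-46810785, plus strand) is shown as the proximal promoter of Timd4. Cd4 had no entry in the promoter reference used, so only Timd4 could be shown. Timd4 is also the gene of the pair whose level differed more between the libraries. Capitals mark each GGAA, the core letters bound by ETS factors such as the macrophage regulator PU.1, and each TGCTGA, a MAF half-site, on either strand.
Timd4: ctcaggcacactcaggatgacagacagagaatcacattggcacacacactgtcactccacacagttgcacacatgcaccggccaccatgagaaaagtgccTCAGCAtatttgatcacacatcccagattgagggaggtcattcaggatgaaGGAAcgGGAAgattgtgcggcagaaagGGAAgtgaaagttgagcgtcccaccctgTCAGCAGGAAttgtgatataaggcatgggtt
GGAA occurred 4 times in this window, and 29.6% of the 32851 RefSeq promoter windows of the same length held as many. TGCTGA occurred 2 times on the reverse strand, as TCAGCA, and 15.3% of all windows held it at least 1 time, 1.51% as often. The longer letters GAGGAA, searched on both strands, occurred 0 times, against at least 1 match in 22.0% of all windows. These matches describe letters in the window and not bound sites. No data on binding were part of the series.

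Timd4 was higher in the knockout library than in the wild-type library. The wild-type library gave 708 Timd4 UMIs, or 34.2 CPM (31.8 to 36.9), with 34.2 CPM in lane 1 and 34.2 CPM in lane 2. The knockout library gave 1178 Timd4 UMIs, or 162 CPM (153 to 172), a log2 ratio of 2.21 with a pseudocount of 1 CPM. The difference between libraries was far larger than that between lanes, and the intervals did not overlap. Ccr2 itself, as a check of the labels, was at 331 CPM in the wild type and at 6.88 CPM in the knockout, where 50 UMIs were found in 30 cells.

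Cd4 was also higher in the knockout, by less on the log2 scale. It gave 1863 UMIs in the wild type, or 90.1 CPM (86.1 to 94.3), with 86.4 CPM in lane 1 and 98.9 CPM in lane 2. In the knockout it gave 1511 UMIs, or 208 CPM (198 to 219), a log2 ratio of 1.20. The knockout lay above both lanes, whose own log2 difference was 0.19. Over the 7401 genes with a mean of at least 10 CPM in the libraries the median log2 ratio was 0.18, so both genes lay above the general shift. Leaving out cells with at least 5% haemoglobin or 1% Jchain UMIs gave log2 ratios of 2.22 for Timd4 and 1.21 for Cd4.

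Within the wild-type library both genes were lower in cells with more Ccr2 UMIs. Timd4 was at 57.3 CPM (52.7 to 62.2) in the 1692 cells without a Ccr2 UMI, at 22.8 CPM (17.9 to 28.7) in the 490 cells with 1 to 2, at 15.5 CPM (11.1 to 20.9) in the 360 cells with 3 to 5, and at 4.80 CPM (3.04 to 7.20) in the 474 cells with 6 or more. The neighbouring intervals of the classes with 1 to 2 and with 3 to 5 Ccr2 UMIs overlapped for Timd4, and no others did. Cd4 was at 140 CPM (133 to 148), 79.9 CPM (70.5 to 90.3), 41.9 CPM (34.6 to 50.4) and 20.4 CPM (16.6 to 24.9) in the same order, with no overlap between neighbours. From the highest Ccr2 class to the class without a Ccr2 UMI the log2 ratio was 3.33 for Timd4 and 2.72 for Cd4. Depth rose along the same order of classes, from a median of 5303 to 9580 UMIs, so the class without a Ccr2 UMI also holds cells in which Ccr2 was not sampled.

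The wild-type cells without a Ccr2 UMI did not reach the knockout level of either gene. Against them the knockout was higher by a log2 ratio of 1.48 for Timd4 and 0.57 for Cd4, and the intervals stayed apart. In rising order the levels of both genes ran from the wild-type class with 6 or more Ccr2 UMIs through the lower classes to the knockout. In a pooled library, more cells that express a gene and more RNA per such cell are both held in a CPM value. The share of cells at equal depth, below, is a second view of the same counts.

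**Figure D1:**
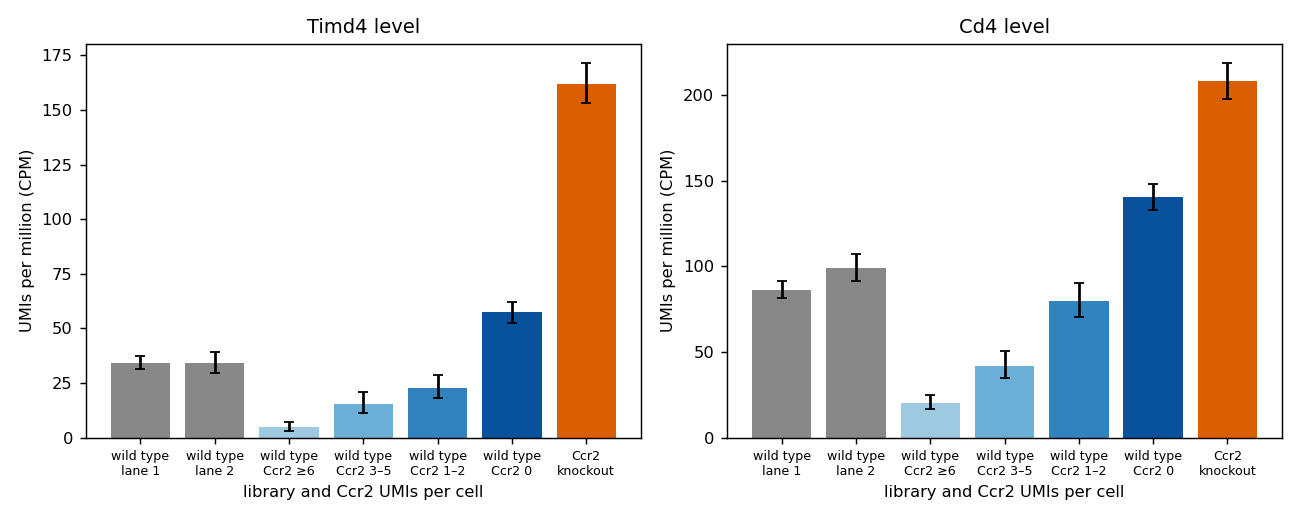
Levels of Timd4 (left) and Cd4 (right) in CPM for each wild-type lane, for wild-type cells by their Ccr2 UMIs (6 or more, 3 to 5, 1 to 2, 0) and for the knockout library. Bars are sums over cells and lines are 95% Poisson intervals. Timd4 climbs from 4.80 to 57.3 CPM across the wild-type classes and stands at 162 CPM in the knockout, and Cd4 climbs from 20.4 to 140 CPM and stands at 208 CPM.

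To compare shares of cells, each cell was thinned at random to 1000 UMIs, which left out 1 wild-type and 196 knockout cells that held fewer. Timd4 was then found in 108 of 3015 wild-type cells, or 3.58% (2.95 to 4.31%), and in 383 of 2416 knockout cells, or 15.9% (14.4 to 17.4%). Cd4 was found in 9.52% (8.49 to 10.6%) of the wild-type and in 19.7% (18.2 to 21.4%) of the knockout cells. Without thinning, Timd4 was found in 14.8% of wild-type and 31.2% of knockout cells, and Cd4 in 34.4% and 38.5%. The wild-type cells were the deeper ones, so the unthinned shares understate the difference. Among thinned wild-type cells without a Ccr2 UMI, Timd4 was found in 5.56% and Cd4 in 13.4%, both below the knockout shares.

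Cells with UMIs of at least 3 genes of the lymphoid lists served as a comparison, although Cd4 is itself a T cell gene and whether these cells are doublets was not tested. They numbered 78 in the wild type. After thinning 0 of them held Timd4, which allows a share of up to 3.85% by the rule of 3 counts and 4.62% by the Clopper-Pearson interval, and 3.85% held Cd4. In the 56 such knockout cells Timd4 was found in 7.14% and Cd4 in 3.57%. Their median depths were 8911 and 2812 UMIs. Without thinning, 34.6% of the 78 wild-type cells held Cd4, near the 34.4% of all cells, and 7 held Timd4, all 7 with Cd4. In the knockout the unthinned shares were 19.6% for Cd4 and 14.3% for Timd4. The wild-type Timd4 share over all thinned cells was below what a count of 0 in 78 cells allows. In the wild-type class with 6 or more Ccr2 UMIs the thinned share was 0.422% for Timd4 and 1.27% for Cd4, below the 5.56% and 13.4% of the cells without a Ccr2 UMI. Most cells with a UMI held a low number of them. In the wild type 279 cells had 1 Timd4 UMI, 99 had 2 and 67 had 3 or more, and the highest number was 8. In the knockout these were 565, 166 and 84 cells, and the highest number was 5.

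The pair was found in the same cell more often than independence gives in the wild-type library, by a modest number of cells. After thinning to 1000 UMIs, 19 wild-type cells held both genes, against 10.3 expected from the product of the shares. Cd4 was found in 17.6% (10.9 to 26.1%) of the 108 cells with Timd4 and in 9.22% (8.19 to 10.3%) of the 2907 others, a log2 odds ratio of 1.10 (0.25 to 1.83). Double-positive cells were 0.630% (0.380 to 0.982%) of the library. The lower bounds lay just above the value for independence.

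In the knockout the excess at this depth was smaller, and its interval included 0. There 88 cells held both genes against 75.6 expected, and Cd4 was found in 23.0% (18.9 to 27.5%) of the 383 cells with Timd4 and in 19.1% (17.4 to 20.9%) of the 2033 others. The log2 odds ratio was 0.34 (-0.06 to 0.72). It was 0.09 after removal of 55 cells with the highest doublet scores, a step that also redrew the UMIs of remaining cells. Another random draw without removal gave 0.27, so removal and redrawing cannot be told apart in that value. The coupling ratio described below, which uses all UMIs, was 1.22 before and 1.23 after the same removal. Double-positive cells nonetheless made up 3.64% (2.93 to 4.47%) of the knockout cells, above the wild-type share, and each gene alone was also found in a larger share of cells. Whether the association differed between the libraries was not tested.

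Part of the wild-type association went with Ccr2. Among cells without a Ccr2 UMI, 16 held both genes against 12.6 expected, a log2 odds ratio of 0.46 (-0.47 to 1.25), and double-positive cells were 0.946% (0.541 to 1.53%) of the class. The classes with 1 to 2, 3 to 5 and 6 or more Ccr2 UMIs each held 1 double-positive cell, against 0.466, 0.267 and 0.0253 expected. Weighted over the 4 classes (Mantel-Haenszel) the log2 odds ratio was 0.63, with 13.4 double-positive cells expected, compared with 10.3 when the classes were ignored. So 16 of the 19 double-positive wild-type cells had no Ccr2 UMI, and the excess within classes rested on few cells.

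A random thinning to 1000 UMIs keeps few copies of either gene, and the measures in the next paragraphs were added after these values were seen. The average over all possible draws of 1000 UMIs can be computed exactly. It gave 20.3 double-positive cells against 11.1 expected in the wild type (log2 odds ratio 1.06), with log2 odds ratios of 1.07 in lane 1 and 1.05 in lane 2. For wild-type cells without a Ccr2 UMI it gave 17.3 against 12.9 (0.54), and for the knockout 82.9 against 71.0 (0.34).

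At greater depth the pair was seen together more clearly. Among the 2155 wild-type cells with at least 4000 UMIs, the average over draws of 4000 UMIs was 118 double-positive cells against 60.8 expected, with Cd4 in 49.4% of the cells with Timd4 and in 22.5% of the others. Among the 1106 of them without a Ccr2 UMI it was 99.8 against 71.4. Among the 544 knockout cells of that depth it was 113 against 88.2, with Cd4 in 52.6% of the cells with Timd4 and in 33.7% of the others. Between 1000 and 4000 UMIs the ratio of observed to expected went from 1.83 to 1.94 (wild type) and from 1.17 to 1.28 (knockout), and the log2 odds ratio from 1.06 to 1.75 and from 0.34 to 1.13. The depths in these averages do not hold the same cells, since those with fewer than 4000 UMIs were left out at the greater depth. The same 544 knockout cells, in 1 draw per depth, gave log2 odds ratios of 0.39 (-0.71 to 1.33) at 1000 UMIs and 1.05 (0.52 to 1.58) at 4000. The same 2155 wild-type cells gave 1.41 (0.35 to 2.30) and 1.76 (1.36 to 2.16).

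Unthinned cells compared only with cells of like depth gave the same order. At 8000 UMIs or more, Cd4 was found in 74.8% (67.1 to 81.5%) of 151 wild-type cells with Timd4 and in 27.6% (24.7 to 30.7%) of the others. Without a Ccr2 UMI the values in that bin were 85.0% (76.9 to 91.2%) and 43.0% (37.2 to 49.0%). In the knockout, cells of 4000 to 8000 UMIs gave 58.8% (52.2 to 65.0%) with Timd4 and 39.3% (33.6 to 45.2%) without. Below 2000 UMIs the groups overlapped: 29.2% against 27.5% in 821 knockout cells, and 1 of 10 wild-type cells with Timd4 against 21.9% of the others.

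**Figure D2:**
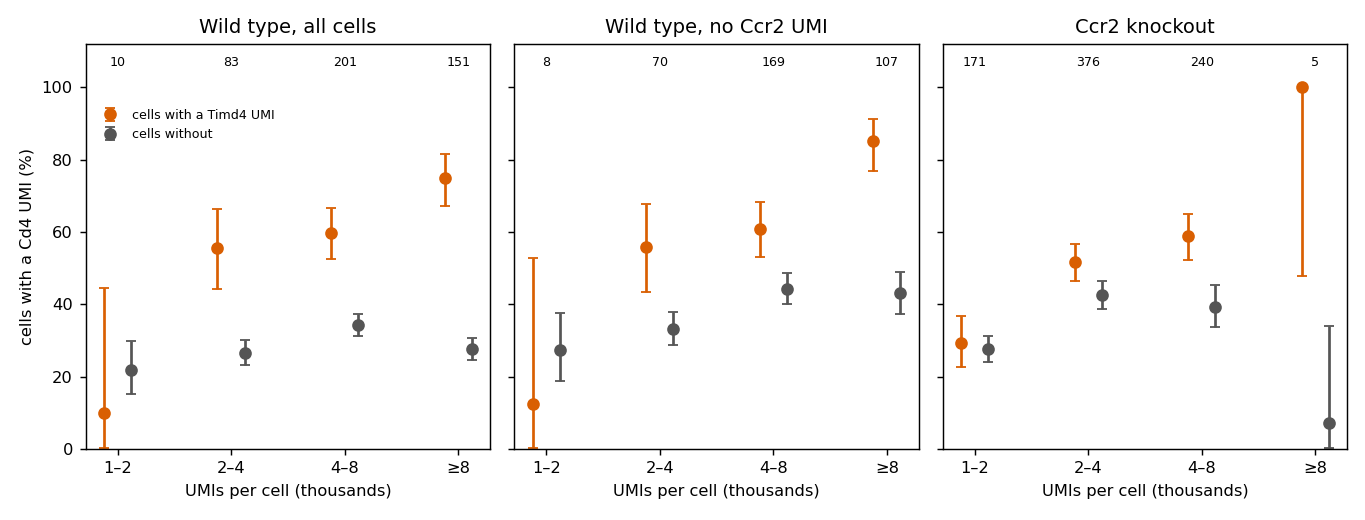
Percent of unthinned cells with a Cd4 UMI among cells with (orange) and without (grey) a Timd4 UMI, by bin of UMIs per cell, for all wild-type cells, wild-type cells without a Ccr2 UMI and knockout cells. Lines are 95% Clopper-Pearson intervals and the number above each pair counts cells with Timd4. The groups separate from 2000 UMIs upward, to 74.8% against 27.6% in the deepest wild-type cells, and the deepest knockout bin has only 5 cells with Timd4.

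A coupling ratio puts the same comparison on a scale that does not depend on depth. It is the mean over cells of the product of the genes' shares of a cell's UMIs, divided by the product of their mean shares, and it is 1 when the genes vary independently. For Timd4 with Cd4 it was 1.84 (1.63 to 2.06) in the wild type, 1.81 in lane 1 and 1.90 in lane 2. Among wild-type cells without a Ccr2 UMI it was 1.34 (1.17 to 1.52), with 1.26 and 1.49 in the lanes. In the knockout it was 1.22 (1.10 to 1.35). All of these intervals lay above 1, and those of the knockout and of the wild-type cells without a Ccr2 UMI overlapped. They hold only the counting error of the number of cells with both genes. The spread of the products between cells and the error of the mean shares are left out, so the intervals can be too narrow. Among the 1324 wild-type cells with a Ccr2 UMI the ratio was 3.36 (2.46 to 4.49), on 46 cells with both genes.

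The ratio of a gene with itself, from pairs of its own UMIs, shows how unevenly it is spread over cells and how much coupling would be possible. In the wild type it was 4.36 for Timd4 and 2.26 for Cd4. Without a Ccr2 UMI it was 2.97 and 1.67, and in the knockout 1.45 and 1.45. Timd4 was thus spread much more evenly over the knockout cells than over the wild-type cells. The ratio with Ccr2 in the wild type was 0.259 for Timd4 and 0.341 for Cd4, the opposite direction to the coupling of the pair.

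**Figure D3:**
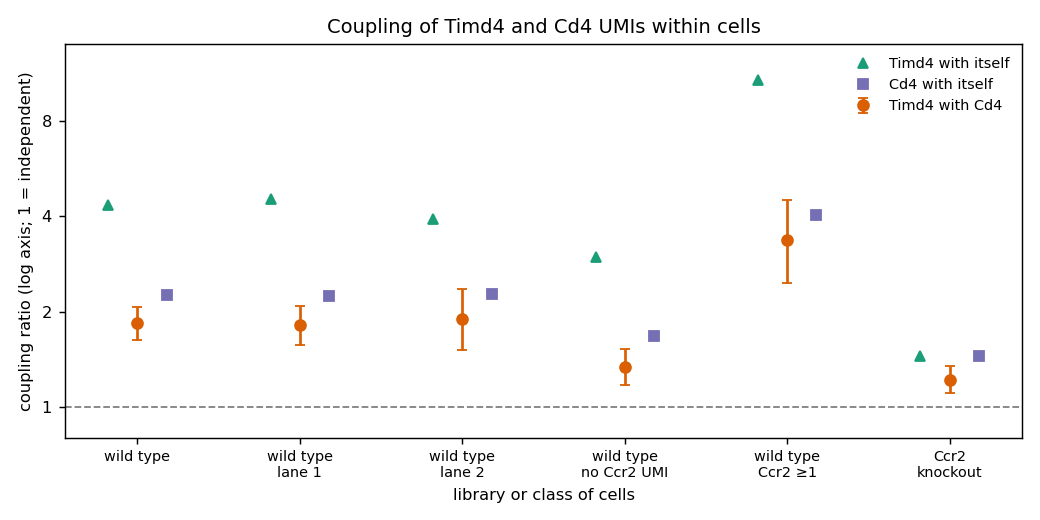
Coupling ratio on a log axis for Timd4 with Cd4 (circles), Timd4 with itself (triangles) and Cd4 with itself (squares). Shown are the wild type, its lanes, its cells without and with a Ccr2 UMI, and the knockout. Lines scale the ratio by the 95% Poisson interval of the number of cells with both genes and can be too narrow. The dashed line at 1 marks independence. The pair lies at 1.84 in the wild type, 1.34 without a Ccr2 UMI and 1.22 in the knockout.

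The level of each gene by the UMIs of the other gave the size of the difference per cell. Cd4 was at 73.4 CPM in wild-type cells without Timd4, at 175 CPM with 1 Timd4 UMI, at 196 CPM with 2 and at 192 CPM with 3 or more. In the knockout these levels were 189, 225, 302 and 229 CPM. Timd4 was at 18.2, 54.4, 68.7 and 78.3 CPM in wild-type cells with 0, 1, 2 and 3 or more Cd4 UMIs, and at 137, 185, 208 and 216 CPM in the knockout. In the wild type the largest step was between 0 and 1 UMI of the partner. Timd4 rose further there, from 54.4 CPM (47.2 to 62.4) with 1 Cd4 UMI to 78.3 CPM (65.5 to 92.8) with 3 or more. Knockout cells without the partner were already above or near the wild-type cells that had it. With 3 or more partner UMIs the intervals overlapped those of 1 UMI in the knockout, 183 to 284 against 203 to 249 CPM for Cd4.

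Neither gene was the other's closest companion. Ranked by the lower of the libraries' log2 odds ratios in thinned cells, Cd4 was number 166 of the 2557 genes that could be measured with Timd4, and Timd4 was number 457 of the 5331 measured with Cd4. By the coupling ratio the pair ranked 91 and 173 of 4761. Within single libraries, by the log2 odds ratio, Cd4 ranked 69 with Timd4 in the wild type and 371 in the knockout, and Timd4 ranked 92 and 1154 with Cd4. By the coupling ratio Cd4 ranked 30 and 344 with Timd4, and Timd4 ranked 10 and 431 with Cd4, so the pair stood closer in the wild-type ranking. A log2 odds ratio of at least 0.5 in both libraries was reached by 45 genes with Timd4, 1.76% of those tested, and one of at most -0.5 by 37, 1.45%. With Cd4 these were 158 genes, 2.96%, and 128 genes, 2.4%. The pair itself did not reach that size in the knockout.

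The genes found most often with Timd4 in both libraries were Commd1, Adamdec1, Rgs1, Sepp1, Azi2, Pcnp, Eif4e3 and Il18bp. Adamdec1, a protease-like gene of intestinal macrophages, was found in 50.9% of wild-type cells with Timd4 and in 24.2% of the others, and in 61.9% and 48.7% of knockout cells. Sepp1, the plasma selenoprotein also named Selenop that resident macrophages express, had log2 odds ratios of 0.91 in the wild type and 0.76 in the knockout, and Commd1 had 1.30 and 0.91. Commd1 rested on 14 and 16 cells with both genes. At the other end were S100a11, Alox5ap, Txn2, Trmt112 and Znrd1. S100a11, a calcium-binding protein abundant in monocytes, was at -1.44 and -2.20, and Alox5ap, which helps make leukotrienes, was at -1.35 and -1.11.

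For Cd4 the genes were Engase, Snx14, Gabarapl1, Ctsb, Syvn1, Tmem68, Rbm14 and Pdcd1lg2. Ctsb, which encodes the lysosomal protease cathepsin B, was found in 85.7% of wild-type cells with Cd4 and in 75.1% of the others, and in 87.0% and 77.7% of knockout cells. Pdcd1lg2, which encodes the checkpoint ligand PD-L2, had log2 odds ratios of 1.0 and 0.88. Engase led with 1.39 and 1.30, on 11 and 34 cells. The lowest were S100a6 at -1.97 and -1.95 and Lgals1 (galectin-1) at -1.55 and -2.31, followed by Gm7676, Vars and Gm7808. S100a6 and Lgals1 are abundant in monocytes, and 2 wild-type and 2 knockout cells held S100a6 with Cd4, against 8.76 and 7.90 expected.

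By the coupling ratio, which used all UMIs and was added later, the leading genes differed. With Timd4 they included Reps2 (2.21 in the wild type and 1.56 in the knockout), Gnl2 (1.74 and 1.51) and Cd22 (1.99 and 1.46), an inhibitory sialic acid receptor. With Cd4 they were led by Wnt4 (2.12 and 1.5), Clec1b (1.48 and 1.55), Pdcd1lg2 (1.55 and 1.48) and Gas1 (2.36 and 1.47). Pdcd1lg2 was among the 8 highest for Cd4 by either measure. The lowest with either gene were haemoglobin genes, such as Hba-a1 at 0.0703 and 0.185 with Timd4 and at 0.0199 and 0.0734 with Cd4. The median over all 4761 genes was 1.03 and 1.0 with Timd4 and 1.05 and 1.01 with Cd4.

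Lists of genes with a known role gave the surroundings of the pair. Of the 20 resident macrophage genes, 10 could be measured with Timd4, of which 3 were called higher (Adamdec1, Sepp1 and Gas6, a ligand that bridges dying cells to phagocytes) and 0 lower, with median log2 odds ratios of 0.55 in the wild type and 0.09 in the knockout against 0.09 and 0.05 over all genes tested. With Cd4, 14 were measured and 2 were called higher, Adamdec1 and Mertk, a receptor for the uptake of dying cells. Of the recruited monocyte genes, 6 were measured with Timd4 and 1 was called lower, Plac8. With Cd4, 8 were measured, of which Lsp1 and S100a6 were called lower and Itgal higher. Csf1r, the receptor for the main macrophage growth factor, was the only member of the core macrophage list called with either gene, and was higher with both. The rest of that list did not follow it with Cd4: of 7 measured, 2 were above 0 in both libraries and 5 below, with medians of -0.03 and -0.19. With Timd4, 4 of 7 were above and 1 below.

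Tim-4 works beside other receptors for phosphatidylserine, and few members of the list of 23 such uptake genes were called with it. With Timd4, 7 were measured, 1 was called higher (Gas6) and 0 lower, and the medians were 0.11 and 0.08. With Cd4, 13 were measured, 1 was called higher (Mertk) and 0 lower, with medians of 0.08 and 0.07. For the partner of CD4, the MHC class II genes, 0 of 3 measured with Timd4 and 0 of 4 measured with Cd4 were called in either direction. Of the 12 genes listed for control of Cd4 in T cells, 5 were measured with Cd4, 0 were called, and 4 were above 0 in both libraries, as were 1941 of all 5331 genes. The called shares over all genes are the 1.76% and 1.45% with Timd4 and the 2.96% and 2.4% with Cd4 given above.

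Cells were then sorted by thinned counts into 4 gates. The wild type had 19 double-positive cells, 89 with Timd4 only, 268 with Cd4 only and 2639 with neither, and the knockout had 88, 295, 389 and 1644. The share of wild-type cells without a Ccr2 UMI was 84.2%, 87.6%, 78.7% and 52.6% in the same order. A gate named for only 1 gene includes cells in which the other was not sampled. Of 4508 genes tested, 20 (0.444%) were at least 2-fold higher and 46 (1.02%) at least 2-fold lower in double-positive than in double-negative cells of both libraries. Those 20 rested on 3 to 11 UMIs in the 19 wild-type cells and on 8 to 24 in the knockout cells. The 20 were led by Cdc14a, Gmeb1, 3110043O21Rik, Taf5l, Dnaja3, Fam217b, Usf3, Rhbdf2, Pald1 and Kcng2. None of the 20 was among the genes 2-fold higher in both libraries when the gates were drawn from all UMIs.

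The gates were therefore also drawn from all UMIs, a choice made after seeing the data. They then held 280 wild-type and 395 knockout double-positive cells, with median depths of 6713 and 3386 UMIs, against 6119 and 1951 UMIs in the 1815 and 1187 cells with neither gene. Of 4678 genes, 8 (0.171%) were higher and 29 (0.62%) lower in both libraries. The 8 were Npl, Ccl24, 2900052N01Rik, Olfml3, Wnt4, Ocstamp, Cd22 and Acp5. Npl, an enzyme of sialic acid breakdown, was at 355 CPM in wild-type cells with both genes and at 119 CPM in cells with neither, and at 239 and 104 CPM in the knockout. Ccl24, the chemokine eotaxin-2, was at 161 and 62.4 CPM in the wild type and at 212 and 95.1 CPM in the knockout. Wnt4, a secreted signalling protein, was at 258 and 49.7 CPM and at 332 and 158 CPM. Cd22 was at 53.8 and 16.7 CPM and at 53.5 and 25.6 CPM, and Acp5, which encodes tartrate-resistant acid phosphatase, was at 1034 and 469 CPM and at 689 and 340 CPM.

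Among the genes lower in cells with both, 17 of the 29 had also been called with the thinned gates. They included S100a6 (log2 ratios of -3.13 in the wild type and -2.90 in the knockout), Lsp1 (-2.83 and -2.73), Plac8 (-2.49 and -1.54), S100a11 (-2.32 and -3.58) and Vim, Lgals1, Ahnak and Crip1, genes abundant in monocytes. The recruited monocyte list had 8 members measured, 4 lower, 0 higher, and medians of -1.31 and -1.01 against 0.08 and 0.02 over all genes. Of the resident list 15 were measured and 0 called, and 6 were above 0 in both libraries, led by Adamdec1 at 804 against 186 CPM in the wild type and 1345 against 842 CPM in the knockout. All other resident genes measured were above 0 in the wild type and below 0 in the knockout. These were Cd163 (0.70 and -0.49), Igf1 (1.40 and -0.37), Gas6 (0.70 and -0.23), F13a1 (0.11 and -1.28), Pf4, Hpgd, Maf, Mrc1 and Sepp1. The median of the resident list was 0.55 in the wild type and -0.12 in the knockout, against 0.08 and 0.02 over all genes. Over all 4678 genes, 1836 were above 0 in both libraries and 1189 below, which is the background for these counts. Of the 12 uptake genes measured, 0 were called, 9 were above 0 in both libraries, among them Mertk, Axl, Havcr2 and Stab1, and 1, Cd36, was below. Of the 12 dissociation stress genes, 0 were called, 1 was above 0 in both libraries and 6 were below. Whether the differences between the libraries exceed what further libraries would show was not tested.

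RNA of other cells also differed between these gates. The strongest genes lower in cells with both were the haemoglobin genes, such as Hbb-bs at 8.43 against 496 CPM in the wild type and 291 against 6946 CPM in the knockout, genes whose near-identical copies can share reads, then Mzb1 and Jchain of plasma cells, and Reg3b of the epithelium. Jchain was at 293 against 2099 CPM and at 161 against 2915 CPM. Without cells of at least 5% haemoglobin or 1% Jchain UMIs, the coupling ratio of the pair was 1.83 in the wild type and 1.21 in the knockout. With all cells it was 1.84 and 1.22. The step removed few cells, leaving 2991 of 3016 in the wild type and 2591 of 2612 in the knockout. It therefore says little about RNA of other cells in those that remained, whose part in the coupling was not tested.

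**Figure D4:**
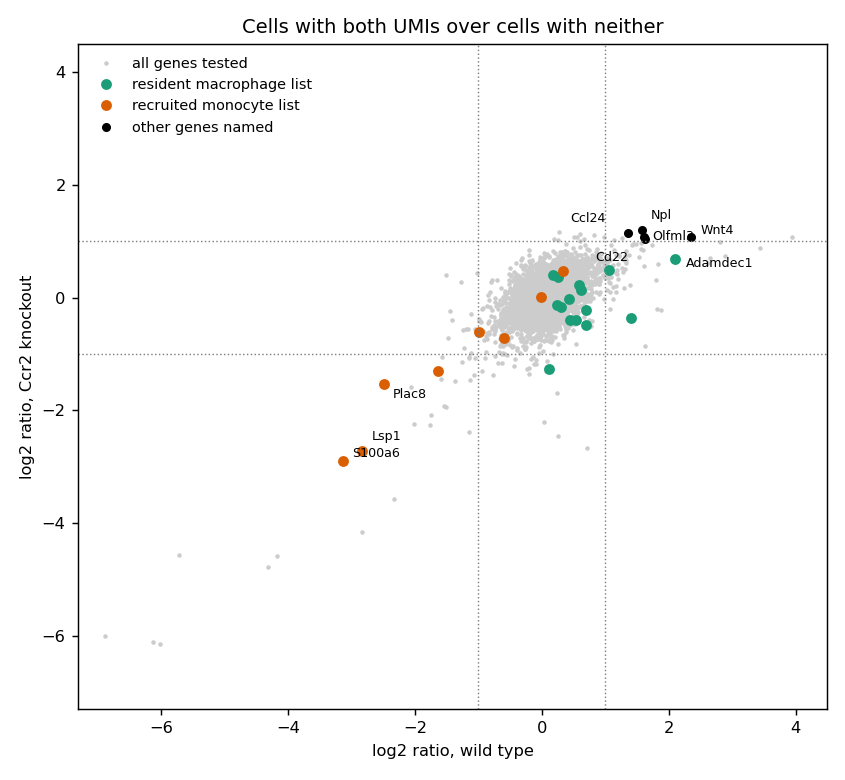
Log2 ratio of each gene's CPM in cells with Timd4 and Cd4 UMIs to cells with neither, in the wild type (horizontal) and the knockout (vertical), for 4678 genes, with gates from all UMIs. Dotted lines mark 2-fold, and the lists of resident (green) and recruited monocyte (orange) genes and 5 other named genes (black) are marked. S100a6, Lsp1 and Plac8 lie below -1 in both libraries, and Npl, Ccl24, Wnt4, Olfml3 and Cd22 above 1.

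Few genes separated cells with Timd4 only from cells with Cd4 only. With thinned gates, 0 of 4707 genes (0%) were 2-fold higher and 0 (0%) 2-fold lower in both libraries. The nearest above was Ccl8 (1.15 in the wild type and 0.97 in the knockout), a monocyte-attracting chemokine, followed by Snrnp48 (0.90 and 0.84), Ccdc186 (1.30 and 0.81), Aspscr1 (1.06 and 0.81), Tbpl1 (0.76 and 0.77) and F13a1 (1.79 and 0.73), a marker of resident macrophages around vessels. The lowest was Naaa (-1.41 and -0.92). With gates from all UMIs, 1 of 4706 genes (0.0212%) was higher, Plac8, at 212 against 103 CPM in the wild type and 60.9 against 26.3 CPM in the knockout, and 1 (0.0212%) was lower, Jchain, at 82.0 against 1248 CPM and at 443 against 2010 CPM. The resident markers Cd163 (1.25 and 0.28), Pf4 (0.39 and 0.43), Igf1 (0.91 and 0.19) and F13a1 (1.37 and 0.18) were above 0 in both libraries without reaching 2-fold in both. Of the 15 resident genes measured, 5 were above 0 in both libraries and 2 below. Itgal, at -0.40 and -0.55, and Lag3, at -0.24 and -0.38, were below 0. Zbtb7b was at -0.51 in the wild type and nearly equal in the knockout (-0.01, 43.6 against 43.8 CPM). Of the 7 listed CD4 partners and relatives measured, 3 were above 0 in both libraries and 2, among them Lag3, below. Of the 6 recruited monocyte genes measured, 3 were above and 1, Itgal, below. Over all 4706 genes, 1151 were above 0 in both libraries and 1262 below. Lag3 is a relative of Cd4 that also binds MHC class II, and Zbtb7b is the factor that sets the CD4 lineage in T cells.

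T cell genes were counted because Cd4 is also a T cell gene. The sums in this paragraph are for the gates from thinned counts, with 19 wild-type and 88 knockout double-positive cells. They were not made for the gates from all UMIs. Of the 14 T cell and innate lymphoid genes, 11 are in the files. In the wild type their sum was 0 UMIs in the double-positive cells and 16 UMIs, or 10.6 CPM (6.08 to 17.3), in the cells with Cd4 only, against 16.3 CPM (14.5 to 18.2) in the cells with neither gene. In the knockout it was 21.9 CPM (7.11 to 51.1) in the double-positive cells and 18.5 CPM (11.1 to 28.8) in those with Cd4 only, against 48.8 CPM (42.9 to 55.4) with neither. The intervals of the double-positive cells reached into or past those of the cells with neither gene. Cd3d and Cd3e, parts of the T cell receptor complex, were at 0 in the double-positive cells of both libraries, while Cd3g had UMIs in those of the knockout, and Cd3d and Cd3e had UMIs in the cells with Cd4 only of both libraries. The 10 core macrophage genes summed to 24822 CPM in wild-type and to 14874 CPM in knockout cells with Cd4 only, against 24701 and 14656 CPM with neither. In the double-positive cells they summed to 21799 CPM (20878 to 22750) in the wild type, below the cells with neither gene (24630 to 24773), and to 14889 CPM (14393 to 15398) in the knockout. That wild-type sum rested on 19 cells, and gates from all UMIs gave the other direction. There, 8 of the 10 core genes were higher with both genes than with neither in both libraries, and 1, Cd14, was lower. Their median log2 ratios were 0.34 in the wild type and 0.26 in the knockout, against 0.08 and 0.02 over all genes tested.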

How the data were processed

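Small-intestinal macrophages were profiled as 1 wild-type and 1 Ccr2-knockout library. The deposited matrices hold raw UMI counts per gene and cell, made with Cell Ranger 3.0.1 on mm10, per the submitters' processing notes. The filters behind the deposited cells are not given in the sources used here. The wild type had 3054 cells and 20766579 UMIs, the knockout 2774 cells and 7506405 UMIs. Gene and barcode lists came with each matrix.

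From these counts, cells with at least 200 genes and at most 10% mt- UMIs were kept. Levels were UMIs summed per library or class, in CPM, with exact Poisson intervals and log2 ratios after adding 1 CPM. Shares had Clopper-Pearson intervals. For equal depth, cells were thinned without replacement to 1000 UMIs (seed 1). Co-detection tables had 0.5 added per cell for the log2 odds ratio. The interval of the coupling ratio is the Poisson interval of the number of cells with both genes.

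Genes were compared with each member where at least 5 double-positive cells were expected in each library and at most 90% of cells held the gene. The 8 highest and 5 lowest by the weaker library were named. Gates were compared over genes with a mean of at least 20 CPM in each library, Timd4 and Cd4 left out, and the 10 highest and 10 lowest were candidates for naming. Scrublet scored doublets per lane, and the main results removed none. The alternatives covered thinning depth and seed, cell filters, doublets, C1q-positive cells, single lanes, size factors and pseudocount. The members and lists were chosen with earlier results of these data known. Scripts were tested on simulated counts. Promoter letters came from RefSeq, where 1 of the pair, Timd4, had an entry. Tools were Python 3.11.15, scipy 1.17.1 and scanpy 1.11.5.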

Additional observations from a re-analysis of the deposited data

How the results depend on the processing

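Of 138 values recomputed under alternatives, 104 stayed within the counting interval of the main value or, for the count of genes, within 1.5 times of it, 33 moved outside and 1 changed sign. The log2 odds ratio within Ccr2 classes went from 0.63 to -0.49 in a draw of 500 UMIs, which left 3 double-positive wild-type cells, while the mean over all draws of 500 UMIs was 0.59, and it was 1.68 without thinning. The wild-type log2 odds ratio was 0.093 in that draw of 500 UMIs (0.96 over all draws), 2.02 without thinning and 1.97 unthinned within depth bins. The knockout value was 1.05 at 4000 UMIs and 0.87 without thinning. The double-positive percent followed depth: at 500, 2000 and 4000 UMIs and without thinning it was 1.07, 11, 20.6 and 15.1 in the knockout, 0.0995, 2.72, 5.80 and 9.28 in the wild type, and 0.177, 4.41, 9.49 and 13.8 in wild-type cells without a Ccr2 UMI, with means over all draws of 500 UMIs of 0.995, 0.187 and 0.284. The log2 ratio of Timd4 between the libraries was 2.01 with cells weighted equally, 1.96 with a pseudocount of 10 CPM and 1.48 against wild-type cells without a Ccr2 UMI, and that of Cd4 was 1.04 with cells weighted equally, 1.01 with median-of-ratios size factors and 0.57 against those cells. The count of genes 2-fold apart between double-positive and double-negative cells, 66, became 121 among C1q-positive cells without lymphoid UMIs, 339 at 500 UMIs, 18 with a minimum of 50 CPM, 43 without a cell filter and 37 without thinning. The wild-type coupling ratio was 2.07 with at least 500 genes and at most 5% mt- UMIs. The cause of these moves was not tested beyond the number of cells each setting left. Settings at 4000 UMIs, depth bins, means over draws, the coupling ratio, gates from all UMIs and the removal of cells rich in haemoglobin or Jchain were chosen after seeing the data. No paired analysis was possible because each genotype has 1 library.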
